A study of Mus musculus with 4 samples.

Results

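The genes described here are 40 interferon-stimulated genes and the 4 chains of the interferon receptors, selected by gene symbol from the known interferon response. Of the 44 genes, 42 had a probe set of their own among 18193 genes measured. The probe set for Isg15 is annotated to a second gene as well and Ifi44 was not analysed here, so neither has a value below. Each gene is represented by its probe set with the highest mean over the 4 arrays.

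RNA was taken from 2000 sorted bone marrow cells per sample and hybridised to Affymetrix MOE430_2 arrays. The samples are CLP_RAGhigh (2 arrays) and CLP_RAGlow (2 arrays), both from adult C57Bl6 mice 8 to 12 weeks old. Both are fractions of the common lymphoid progenitor (CLP), the marrow cell that gives rise to B, T and natural killer cells, and the descriptions name them by a high or a low level of GFP. No other allele, treatment or time is given for either group. The labels describe the replicates as biological and give no animal or sort for each, and the p-values cover only the spread between these samples.

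Interferons are secreted proteins, and cells make those of type I when they sense viral or bacterial nucleic acids. Type I interferons bind a receptor made of IFNAR1 and IFNAR2, and interferon gamma binds IFNGR1 and IFNGR2. Kinases of the JAK family then activate STAT proteins. A complex that contains STAT2 and IRF9 binds the interferon-stimulated response element (ISRE) in promoters, and the gamma-activated site is the promoter element best known for interferon gamma. The induced genes encode sensors of viral RNA, enzymes that degrade or edit RNA, GTPases that attack pathogens, and proteins that dampen the signal. In the marrow, interferon signalling is best known for pushing stem cells out of quiescence and for slowing B-cell development, and stem cells are known to hold a basal level of many of these genes.

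The promoters of many of these genes hold a known interferon element. In windows of 250 bases before to 50 bases after the transcription start (RefSeq, GRCm38.p6), the ISRE core was searched on both strands as GAAA, any 2 bases and GAAA again, which reads TTTC, any 2 bases and TTTC on the other strand. It was found for 16 of the 35 genes with a window (45.7%), that is for 16 of 31 interferon-stimulated genes (51.6%) and 0 of 4 receptor genes, and for 524 of 14452 genes on the arrays (3.63%). The gamma-activated site TTCNNNGAA, which reads the same on both strands, was found for 8 of the 31 (25.8%), for 2 of the 4 receptors, Ifnar1 and Ifnar2, and for 8.57% of genes on the arrays. Among the stimulated genes, 4 held both motifs, Oas1a, Eif2ak2, Ifitm3 and Igtp, and a pair of them overlapped in Ifitm3. Genes without an entry were Usp18, Dhx58, Oas2, Mx1, Mx2, Rtp4, Iigp1, Parp9 and Parp14. A match is a run of letters and was not tested for binding.

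**Figure D1:**
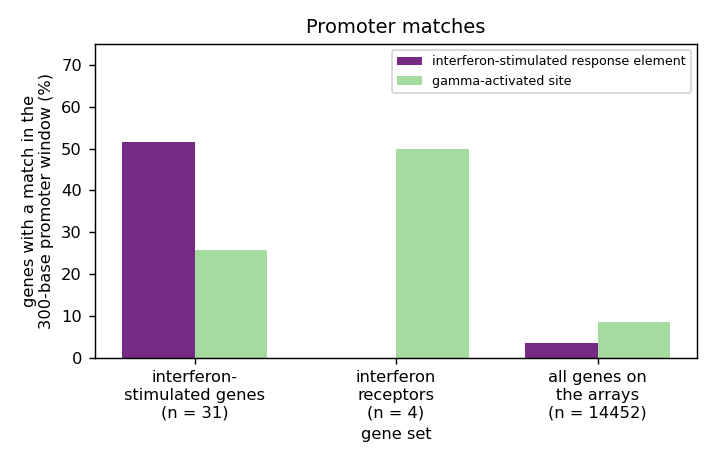
Share of genes (percent, vertical axis) with at least 1 match to the ISRE core or the gamma-activated site in the 300-base promoter window, for interferon-stimulated genes, interferon receptors and all genes on the arrays. The ISRE bar stands at 51.6% for interferon-stimulated genes and at 3.63% for all genes.

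The stretches upstream of the start that hold the ISRE are shown for 7 genes, to set the element side by side in genes whose values on the arrays went in different directions. They are written 5′ to 3′ along the gene's strand, with the ISRE core in capitals, and overlapping cores run together. Rsad2 and Irgm1 were the genes with the smallest p of those lower and higher in CLP_RAGhigh, Stat2 is a subunit of the factor that binds the element, and the others stand for the OAS, IFIT, GBP and IFITM families.
Rsad2, chr12:26456533-26456602, minus strand: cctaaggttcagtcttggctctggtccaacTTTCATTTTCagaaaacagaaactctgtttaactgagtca
Irgm1, chr11:48871421-48871480, minus strand: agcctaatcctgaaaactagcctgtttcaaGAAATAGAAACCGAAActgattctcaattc
Stat2, chr10:128270248-128270315, plus strand: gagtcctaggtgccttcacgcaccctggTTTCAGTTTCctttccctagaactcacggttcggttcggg
Oas1a, chr5:120907526-120907575, minus strand: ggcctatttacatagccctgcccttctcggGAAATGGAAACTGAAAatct
Ifit1, chr19:34640755-34640843, plus strand: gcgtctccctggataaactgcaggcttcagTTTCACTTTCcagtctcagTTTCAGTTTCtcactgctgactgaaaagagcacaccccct
Gbp3, chr3:142559969-142560043, plus strand: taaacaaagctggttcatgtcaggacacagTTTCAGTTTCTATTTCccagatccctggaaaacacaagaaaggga
Ifitm2, chr7:140955968-140956037, minus strand: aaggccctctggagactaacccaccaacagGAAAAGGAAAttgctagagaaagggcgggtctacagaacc
Oas1a, Irgm1 and Gbp3 hold pairs of overlapping cores and Ifit1 a pair set apart. The elements start 120 bases before the start of Rsad2, 222 before Stat2 and 46 before Ifitm2.

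The arrays were alike in brightness, with median intensities between 14.5 and 14.8. The ratio of the 3′ to the 5′ probe set of Actb was 16.2 and 9.62 on the CLP_RAGhigh arrays and 13.5 and 24.5 on the CLP_RAGlow arrays. For Gapdh it was 15.7 and 10.6, and 14.0 and 20.0. The ratios thus differed between arrays that all came from 2000 cells, and the cause was not tested. Genes that define lymphoid progenitors were present, with 7 of 8 measured and 0 of these dim, where dim means a group mean (for markers, the mean over the 4 arrays) under the median of all probe sets, a log2 intensity of 3.88. Markers of macrophages and stromal cells were dim for 5 of 6 genes each, natural killer markers for 5 of 7, mature B markers for 3 of 5 and T-cell markers for 2 of 5. Granulocyte and monocyte markers were dim for 0 of 9 and summed to 3597 to 3690 in CLP_RAGhigh and 3252 to 4665 in CLP_RAGlow, and erythroid markers (1 of 4 dim) to 122 to 216 and 62.7 to 116. Single genes of the list varied more than that sum, to which Mpo gave a log2 intensity of 10.70 to 11.03 on every array. S100a8, a granulocyte gene, had 9.62 and 9.60 in CLP_RAGhigh and 10.15 and 3.81 in CLP_RAGlow, and S100a9 and Camp were likewise low on CLP_RAGlow replicate 2, at 3.79 and 3.55. Csf1r, the receptor of a monocyte growth factor, had 6.79 and 8.26 in CLP_RAGhigh and 9.31 and 9.54 in CLP_RAGlow, a difference of -1.90 that did not pass (limma adjusted p = 0.799). Its 3 probe sets ran from -1.90 to -0.26, with an average of -1.25. Klf1, an erythroid marker, had 6.94 and 6.05 in CLP_RAGhigh and 5.24 and 3.69 in CLP_RAGlow. Its difference of 2.02 did not pass either (limma adjusted p = 0.838), and Epor, Alas2 and Hba-a1 overlapped between the groups. The part of these markers in the results below was not tested. A change in the share of some cells and a change of RNA per cell cannot be told apart in such bulk samples.

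No interferon gene passed the test between CLP_RAGhigh and CLP_RAGlow, and the median difference of the group lay near 0. Tests are two-sided and from limma, p-values are adjusted across the 18193 genes by the Benjamini-Hochberg method, and differences are log2 intensity in CLP_RAGhigh minus CLP_RAGlow with the standard error (SE) of the fit. At an adjusted p under 0.05, 0 of 42 genes were higher and 0 were lower, as were 0% of all genes in either direction. Rag1, a lymphoid progenitor marker, had 10.92 and 10.62 in CLP_RAGhigh and 7.72 and 8.53 in CLP_RAGlow. Its difference of 2.65 ± 0.34 did not pass either (limma adjusted p = 0.256). With 2 arrays per group, a gene that does not pass is therefore not shown to be unchanged. The lowest adjusted p among the 42 was 0.745. The mean was higher in CLP_RAGhigh for 20 genes and lower for 22, against 50.6% and 49.4% of all genes. The median difference was -0.018, beside 0.0028 over all genes, and the differences ran from -1.91 for Eif2ak2 to 1.02 for Cmpk2.

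The values of CLP_RAGhigh were all above those of CLP_RAGlow for 6 of the 42 genes (14.3%) and all below for 8 (19.0%), where all genes gave 15.4% and 15.8%. With an unadjusted limma p under 0.05, 1 gene was higher, Irgm1, and 3 were lower, Rsad2, Eif2ak2 and Isg20. Those shares of 2.38% and 7.14% stand beside 2.35% and 2.94% of all genes tested. The 95% interval of the difference lay wholly within 1 log2 unit of 0 for 9 of the 42 genes (21.4%) and within 2 units for 34, where 52.6% of all genes and 32.6% of the genes that are not dim lay within 1 unit. For the others a difference of 2-fold in at least 1 direction lay inside the interval.

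**Figure D2:**
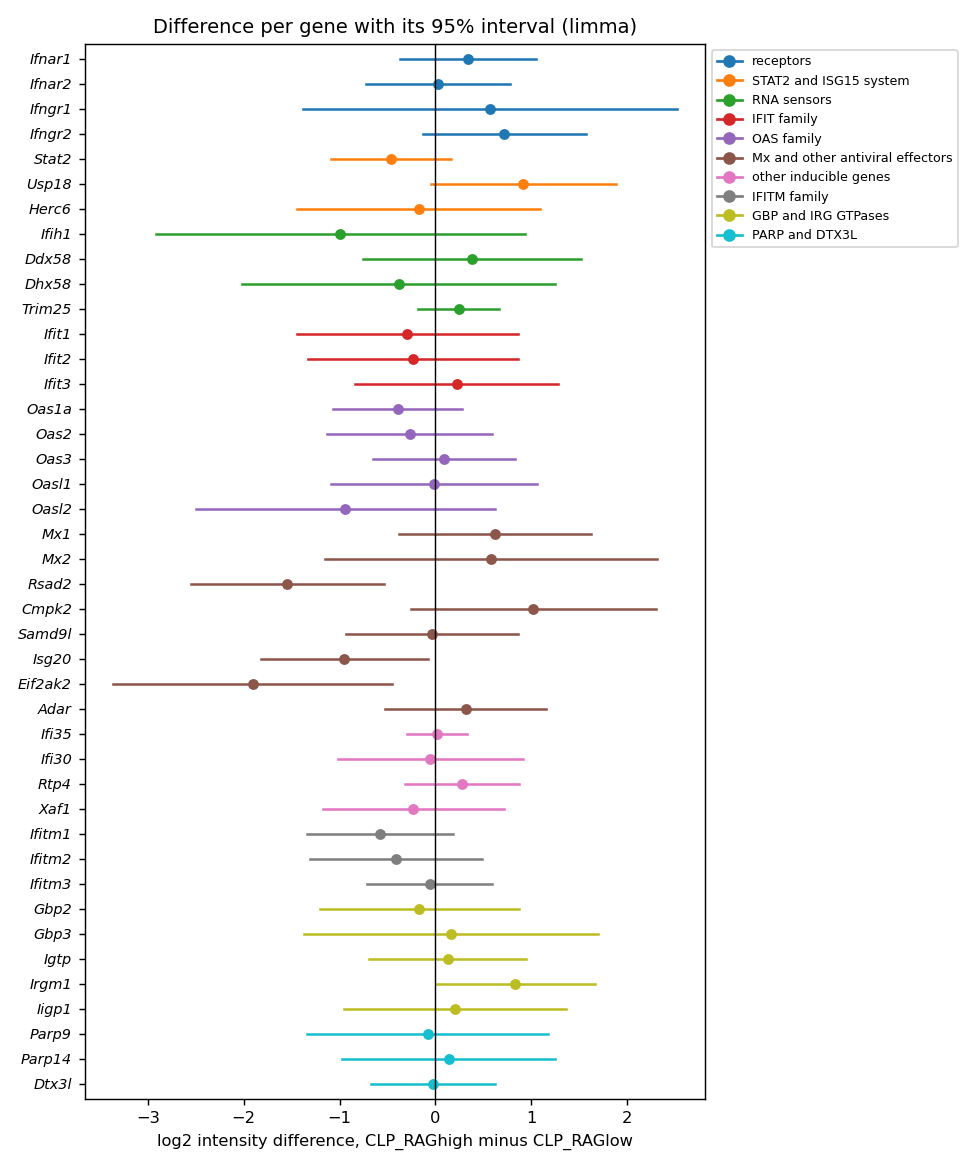
Difference in log2 intensity, CLP_RAGhigh minus CLP_RAGlow (horizontal axis), for the 42 genes by role, with points for the limma estimate and lines for its 95% interval (2 arrays per group). The intervals of Rsad2, Eif2ak2, Isg20 and Irgm1 leave out 0 before adjustment, and 0 genes passed after it.

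The receptor chains had means on the higher side in CLP_RAGhigh for 4 of 4 genes, beside 50.6% of all genes, with a median difference of 0.45, and none passed. For Ifnar2 the difference was only 0.03, and it was -0.45 with its probe sets averaged. Ifngr1 ran from -0.44 to 1.58 with 1 array left out. Ifngr2, the signalling chain of the interferon gamma receptor, had log2 intensities of 6.90 and 6.78 in CLP_RAGhigh and 6.17 and 6.08 in CLP_RAGlow. The groups did not overlap, and the difference was 0.72 ± 0.34 (SE, 95% interval -0.14 to 1.57, limma adjusted p = 0.971). Its other probe set gave 1.18 but overlapped, with 6.67 and 4.01 in CLP_RAGhigh and 3.53 and 4.79 in CLP_RAGlow. Ifnar1, a chain of the type I receptor, had 8.56 and 8.64 in CLP_RAGhigh and 8.24 and 8.29 in CLP_RAGlow. These arrays did not overlap either, with a difference of 0.34 ± 0.29. The other probe set of Ifnar1 gave 0.30 with overlap, at 5.44 and 4.66 in CLP_RAGhigh and 3.83 and 5.68 in CLP_RAGlow.

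Ifngr1, which binds interferon gamma, had 8.60 and 6.58 in CLP_RAGhigh and 7.69 and 6.34 in CLP_RAGlow. Its replicates lay further apart than its group means, which differed by 0.57 ± 0.79, and the groups overlapped. Ifnar2, the partner of Ifnar1 that binds interferon with high affinity, had 8.55 and 8.30 in CLP_RAGhigh and 8.52 and 8.27 in CLP_RAGlow, a difference of 0.03 ± 0.31. That value comes from a probe set marked as cross-hybridising, and the other probe sets of Ifnar2 gave -0.49 and -0.89. The direction of Ifnar2 was therefore not settled by these arrays.

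Signalling and the ISG15 system comprised 3 measured genes, with the mean higher for 1 and lower for 2. Usp18 encodes the protease that removes ISG15 from proteins and restrains signalling at IFNAR2. It had 7.82 and 7.27 in CLP_RAGhigh and 6.82 and 6.44 in CLP_RAGlow. All of the CLP_RAGhigh values lay above the others, with a difference of 0.91 ± 0.39 (limma adjusted p = 0.939), which did not pass. Stat2 had 3.72 and 3.87 in CLP_RAGhigh and 4.15 and 4.36 in CLP_RAGlow. It was dim, with a difference of -0.46 ± 0.25 that shrank to -0.16 when an offset of 32 was added before log2, and its other probe set gave 0.13. Herc6, a ligase that attaches ISG15, differed by -0.17 ± 0.51.

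The sensors of viral RNA had differences on both sides of 0. Ifih1, which encodes MDA5, had 7.94 and 5.76 in CLP_RAGhigh and 7.35 and 8.34 in CLP_RAGlow, a difference of -0.99 ± 0.78. Its CLP_RAGhigh replicates differed by 2.18, more than the groups did. Trim25, a ubiquitin ligase that acts on RIG-I, had 11.84 and 11.44 in CLP_RAGhigh and 11.47 and 11.32 in CLP_RAGlow, and overlapped between the groups, with a difference of 0.24 ± 0.17 that ran from 0.043 to 0.44 with 1 array left out. Ddx58, the gene of RIG-I itself, differed by 0.38 ± 0.46, with -1.06 for the lowest of its 3 probe sets. Dhx58, which encodes the regulator LGP2, differed by -0.38 ± 0.66.

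The IFIT proteins bind viral RNA that lacks the cap modifications of the host. Ifit1 had 5.57 and 6.33 in CLP_RAGhigh and 5.86 and 6.62 in CLP_RAGlow, a difference of -0.29 ± 0.46. Ifit2 had 6.98 and 6.61 in CLP_RAGhigh and 7.47 and 6.58 in CLP_RAGlow, a difference of -0.23 ± 0.44. Both genes overlapped between the groups, as did Ifit3, at 0.22 ± 0.43. The pair Ifit2 and Ifit3, neighbours in the genome, had opposite signs within these errors.

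The OAS enzymes make 2′-5′-linked oligoadenylates that switch on RNase L. Oasl2, an OAS-like gene, had 6.85 and 5.05 in CLP_RAGhigh and 6.88 and 6.90 in CLP_RAGlow. Its difference of -0.94 ± 0.63 came from CLP_RAGhigh replicate 2, and without that array it was -0.043. Oas1a had 9.27 and 9.01 in CLP_RAGhigh and 9.34 and 9.73 in CLP_RAGlow, without overlap and with a difference of -0.39 ± 0.27. Oas2, Oas3 and Oasl1 differed by -0.27, 0.089 and -0.011, with overlap in all 3 cases. The family as listed had 1 higher and 4 lower means, and none passed.

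Antiviral effectors gave the extreme differences in both directions. Rsad2 encodes viperin, an enzyme that makes a chain-terminating nucleotide. It had 7.55 and 6.73 in CLP_RAGhigh and 8.86 and 8.51 in CLP_RAGlow. Both CLP_RAGhigh arrays were lower, with a difference of -1.55 ± 0.41 (95% interval -2.55 to -0.54, limma adjusted p = 0.745). The brightest of its 3 probe sets gave this value, and the others gave -0.47 and 0.29, the latter dim in both groups. The average over the 3 was -0.58.

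Eif2ak2, the gene of PKR, which stops translation when it binds double-stranded RNA, had 4.50 and 3.0 in CLP_RAGhigh and 5.21 and 6.11 in CLP_RAGlow. The groups did not overlap, and the difference was -1.91 ± 0.59 (limma adjusted p = 0.847). The gene is dim in CLP_RAGhigh, so the size depends on the background and was -0.84 with the offset of 32. Its other probe sets gave -1.10 and 0.80. Isg20, an exonuclease, had 6.13 and 6.40 in CLP_RAGhigh and 7.15 and 7.28 in CLP_RAGlow. It has a single probe set, its groups did not overlap, and the difference was -0.95 ± 0.35 (limma adjusted p = 0.923).

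Cmpk2, a mitochondrial nucleotide kinase gene, is the next protein-coding gene to Rsad2 in the genome. It had 7.18 and 6.93 in CLP_RAGhigh and 6.68 and 5.39 in CLP_RAGlow, a difference of 1.02 ± 0.52 against -1.55 for its neighbour, and it was picked for description after its value was seen. Its other probe set gave 0.021, and without CLP_RAGlow replicate 2 the difference was 0.37. Mx1, a dynamin-like GTPase that blocks influenza virus and is disrupted in C57BL/6 and most other laboratory strains, differed by 0.62 ± 0.41, without overlap of the arrays. Mx2 differed by 0.58 ± 0.70, Adar, which edits adenosines in double-stranded RNA, by 0.32 ± 0.34, and Samd9l by -0.04 ± 0.36.

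**Figure D3:**
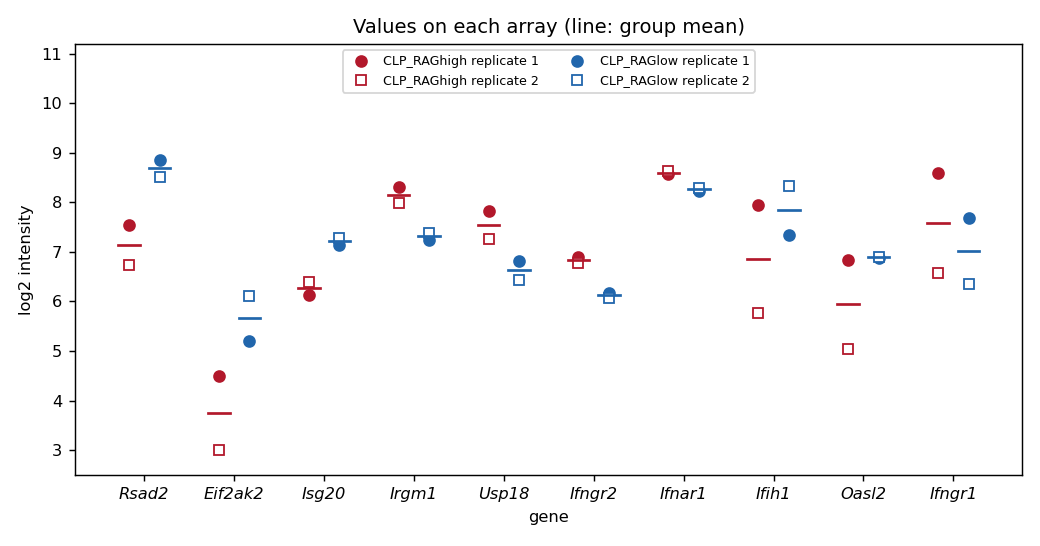
Log2 intensity on each of the 4 arrays (vertical axis) for 10 genes, CLP_RAGhigh in red and CLP_RAGlow in blue, with filled circles for replicate 1, open squares for replicate 2 and lines for group means. Rsad2, Eif2ak2 and Isg20 lie lower and Irgm1, Usp18, Ifngr2 and Ifnar1 higher on both CLP_RAGhigh arrays, while Ifih1, Oasl2 and Ifngr1 are spread between the CLP_RAGhigh replicates, and levels of different genes are not comparable on arrays.

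The IFITM proteins, which block fusion of viruses at the membrane, had lower means in CLP_RAGhigh for 3 of 3 genes, beside 49.4% of all genes, and none passed. Ifitm1 had 9.22 and 9.62 in CLP_RAGhigh and 10.32 and 9.68 in CLP_RAGlow. Ifitm2 had 7.38 and 8.00 in CLP_RAGhigh and 8.05 and 8.16 in CLP_RAGlow. Neither gene overlapped between the groups, although the nearest arrays were close, and the differences were -0.58 ± 0.31 and -0.42 ± 0.36. With 1 array left out, that of Ifitm1 ran from -0.90 to -0.26 and that of Ifitm2 from -0.73 to -0.10. Ifitm3, the best known antiviral member, differed by -0.06 ± 0.26. These genes are neighbours of similar sequence, so that probes may read more than 1 of them.

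The guanylate-binding proteins (GBP) and immunity-related GTPases (IRG) act mainly downstream of interferon gamma against intracellular pathogens. Irgm1, a regulator of the other IRG proteins, had 8.31 and 7.98 in CLP_RAGhigh and 7.24 and 7.38 in CLP_RAGlow. It was higher on both CLP_RAGhigh arrays, with a difference of 0.83 ± 0.34 (95% interval 0.0043 to 1.66, limma adjusted p = 0.928). Iigp1, an effector of the family, had 7.20 and 6.42 in CLP_RAGhigh and 6.23 and 6.99 in CLP_RAGlow, with overlap and a difference of 0.20 ± 0.47. Igtp, Gbp3 and Gbp2 differed by 0.13, 0.16 and -0.17, and Irgm1 was the 1 gene of the 5 whose arrays did not overlap.

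PARP9 and DTX3L form a complex that modifies histones and viral proteins, and their genes lie next to each other. Parp14 had 9.70 and 8.44 in CLP_RAGhigh and 8.97 and 8.89 in CLP_RAGlow, and Parp9 had 8.73 and 7.35 in CLP_RAGhigh and 8.15 and 8.10 in CLP_RAGlow. For both, 1 CLP_RAGhigh array lay above and the other below the CLP_RAGlow arrays, and the differences were 0.14 ± 0.45 and -0.08 ± 0.51. Dtx3l differed by -0.02 ± 0.26.

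The genes of other roles overlapped between the groups in 4 of 4 cases. Rtp4, an interferon-induced chaperone of receptors, had 9.93 and 10.29 in CLP_RAGhigh and 9.69 and 9.98 in CLP_RAGlow, a difference of 0.27 ± 0.24. Its other probe set, dim in both groups, gave -0.20, and the average was 0.035. Xaf1, which binds the apoptosis inhibitor XIAP, had 8.15 and 8.25 in CLP_RAGhigh and 8.85 and 8.01 in CLP_RAGlow, a difference of -0.23 ± 0.38. Ifi30, a lysosomal thiol reductase of antigen processing, differed by -0.05 ± 0.39. Ifi35 had the smallest error of the 42 genes, with a difference of 0.02 ± 0.13 and an interval of -0.30 to 0.33, although its other probe sets gave -0.18 and -0.27.

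The replicates of CLP_RAGhigh lay apart by a median of 0.55 log2 units over the 42 genes and those of CLP_RAGlow by 0.30, while the group means lay apart by a median of 0.28. Over all genes these medians were 0.34, 0.25 and 0.20, and over the genes that are not dim 0.42, 0.31 and 0.26. Means of 2 arrays vary less than single arrays, so a gap between replicates and a gap between groups are unlike spreads. That holds for the single genes above as well. Replicate 1 lay more than 1 log2 unit above replicate 2 for 11 of 42 genes (26.2%) and more than 1 unit below for 1 (2.38%), where all genes gave 7.37% and 4.43%, and genes that are not dim 10.6% and 5.95%. The 11 were Ifih1, Ifngr1, Mx2, Dhx58, Oasl2, Eif2ak2, Parp9, Gbp3, Parp14, Ifit3 and Ddx58, and the gene with the opposite gap was Herc6. Between the CLP_RAGlow replicates, 3 of 42 genes (7.14%) differed by more than 1 unit, as did 7.24% of all genes. CLP_RAGhigh replicate 1 was the highest of the 4 arrays for 21 of 42 genes (50%), against 21.2% of all genes and 27.3% of the genes that are not dim. The same array was the lowest for 11 of 42 (26.2%), among them the 3 IFITM genes, against 32.9% and 28.3%.

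The median deviation from each gene's own mean was 0.22 on CLP_RAGhigh replicate 1 and -0.14 on CLP_RAGhigh replicate 2, against 0.0026 and 0.010 on the CLP_RAGlow arrays. The median difference between the groups was -0.18 without CLP_RAGhigh replicate 1 and 0.24 without CLP_RAGhigh replicate 2, so that its sign follows the array that is kept. Plasmacytoid dendritic cells are strong producers of interferon, and their markers (6 of 8 measured, 1 dim) summed to an intensity of 1589 and 3328 on the CLP_RAGhigh arrays and 3046 and 3762 on the CLP_RAGlow arrays. That sum was lowest on CLP_RAGhigh replicate 1, where the median deviation of the 42 genes was highest, and its part in the result was not tested. Tcf4 gave the most to the sum on every array, at log2 intensities from 9.68 to 10.69. Siglech, a defining marker of these cells, had log2 intensities of 5.10 and 5.25 in CLP_RAGhigh and 4.98 and 4.76 in CLP_RAGlow, and was the 1 gene of the 6 with a higher mean in CLP_RAGhigh. Pacsin1 had 3.18 and 3.12 in CLP_RAGhigh and 4.51 and 4.15 in CLP_RAGlow, and Cox6a2 had 7.99 and 9.17 in CLP_RAGhigh and 9.56 and 9.73 in CLP_RAGlow, both without overlap and lower in CLP_RAGhigh. Ccr9, Tcf4 and Klk1 differed by -0.76, -0.28 and -0.05, with overlap and with other probe sets above 0.

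**Figure D4:**
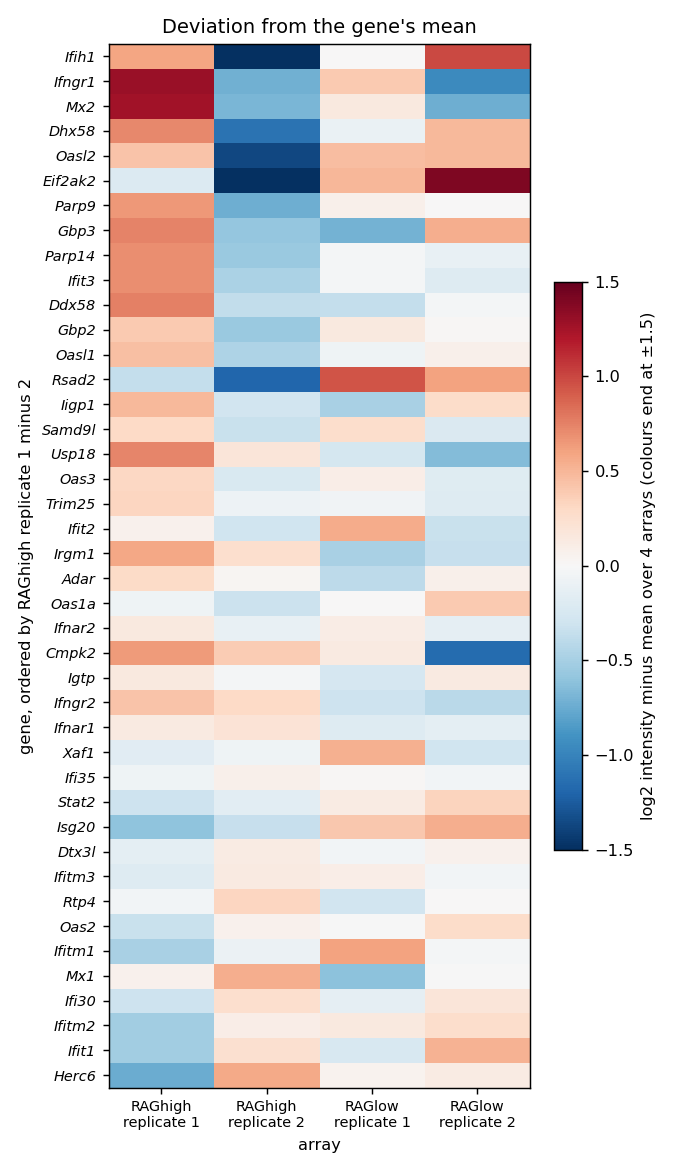
Deviation of log2 intensity from the gene's mean over the 4 arrays (colour) for the 42 genes (rows, ordered by CLP_RAGhigh replicate 1 minus replicate 2) on each array (columns). The upper rows, led by Ifih1 with a gap of 2.18, are higher on CLP_RAGhigh replicate 1 than on replicate 2, with the CLP_RAGlow arrays between them for some genes and, as for Eif2ak2, above both for others.

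Probe sets of the same gene often disagreed. More than 1 probe set was available for 19 of the 42 genes, and the signs were alike for 8 genes and mixed for 11. Some of these probe sets were dim in both groups, so that their signs are uncertain. Examples are those of Rsad2 with 0.29, Rtp4 with -0.20, Ddx58 with 0.27 and Dhx58 with -0.35 and -0.19. The 8 were Ifnar1, Ifngr2, Herc6, Dhx58, Trim25, Cmpk2, Iigp1 and Dtx3l. With the probe sets of each gene averaged, the mean in CLP_RAGhigh was higher for 16 genes and lower for 26, and the median difference was -0.056.

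**Figure D5:**
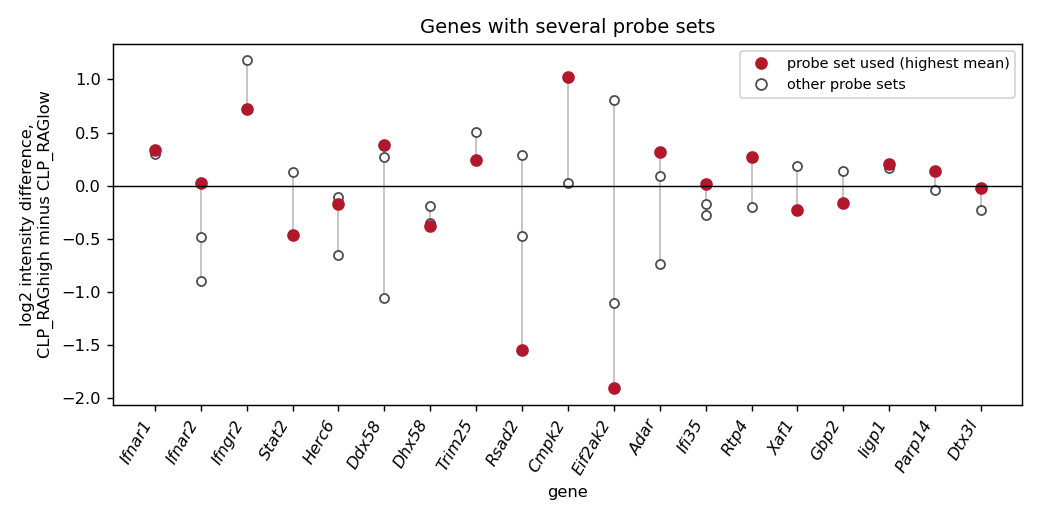
Difference in log2 intensity, CLP_RAGhigh minus CLP_RAGlow (vertical axis), for every probe set of the 19 genes with several, the one used in red and the others as open circles. Eif2ak2 has the widest range, from -1.91 to 0.80, and 11 of the 19 genes have probe sets on both sides of 0.

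Other genes of the pathway were taken from a separate list that holds none of the 44. Of 102 such genes, 88 were measured. The mean in CLP_RAGhigh was higher for 48 and lower for 40, and the median difference was 0.07. The values of CLP_RAGhigh were all above those of CLP_RAGlow for 24 of the 88 genes (27.3%) and all below for 15 (17.05%). All genes gave 15.4% and 15.8%. Whether the larger share above exceeds that of all genes was not tested. By limma 0 passed in either direction, and 5 higher (5.68%) and 4 lower genes (4.55%) had an unadjusted limma p under 0.05, beside 2.35% and 2.94% of all genes. The 8 with the smallest p were on both sides. Ly6e, a membrane protein induced by interferon, had 11.35 and 10.88 in CLP_RAGhigh and 9.88 and 10.42 in CLP_RAGlow, a difference of 0.97 ± 0.26. Ddx60, a helicase, differed by 1.48 ± 0.44, and Nlrc5, the activator of MHC class I genes, by 0.72 ± 0.27. Gm4951, a predicted interferon-inducible GTPase, differed by -2.15 ± 0.61, and Phf11d by -0.97 ± 0.36. Slfn4, Ifi207 and Tlr3 were dim in both groups, with differences of 0.46, 0.55 and -0.58.

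Genes of receptor signalling in that list had 6 higher and 9 lower means of 15 measured, with a median difference of -0.06. Jak1, a kinase of the receptors, differed by 0.50, the lowest of its 3 probe sets, Tyk2 by -0.32 with 0.16 for its other probe set, and Irf9, the DNA-binding partner of STAT2, by -0.41, all chosen for their roles after the values were seen. Jak2, another such kinase, differed by 0.59 with the brighter of its 2 probe sets and by -1.53 with the other, an average of -0.47, so that its direction was not settled. Genes of nucleic acid sensing had 7 higher and 4 lower means of 11, with a median of 0.18. The interferon genes themselves, with 10 of 21 measured, had differences from -0.40 to 0.84, and 8 of the 10 were dim.

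Among the stimulated genes, those with and without an ISRE core in the promoter window lay on both sides of 0. The 15 with the core that were measured had 6 higher and 9 lower means, with a median difference of -0.17 and a range from -1.91 to 0.83. The 14 without it had 4 higher and 10 lower means, with a median of -0.045 and a range from -0.95 to 1.02. Rsad2 and Irgm1, whose elements are printed above, both hold the core and lay on opposite sides of 0.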

How the data were processed

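The authors computed expression values with RMA, per the labels and the design text, and deposited 1 intensity per probe set. RMA corrects background, normalizes between arrays and summarises probes. The deposited intensity values ran from 2.35 to 19893 on what is therefore a linear scale and were turned into log2 values here. Software and genome build: not given in the sources used here. Detection calls were not used here. The platform annotation gave a single gene to 34945 of the 45037 probe sets that are not controls, and only these were used. For each of 18193 genes the probe set with the highest mean was kept.

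Groups were compared with limma 3.58.1 in R 4.3.3 (lmFit, eBayes with an intensity trend, 2 residual and 3.75 prior degrees of freedom), two-sided, with p-values adjusted across genes by the Benjamini-Hochberg method and called under 0.05. The script was tested on simulated data. The number of arrays limits the precision. Figures were drawn with matplotlib 3.10.9.

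The genes were selected by symbol, and they, the lists and the tests were chosen with earlier results of these data known. Every measured gene is given, and the 4 array values are printed for the receptors, for genes at an unadjusted p under 0.05 and for the 2 genes with the smallest p in each role group. Up to 8 pathway genes with the smallest p are named. Alternatives covered the probe sets, offset, normalization, variance trend, dim genes, a replicate block and each array left out.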

Additional observations from a re-analysis of the deposited data

How the results depend on the processing

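With limma, 0 of the 42 genes passed under any of the 12 alternatives, the lowest adjusted p being 0.473. Over all genes, 2 higher genes passed with probe sets averaged, 2 higher and 1 lower after quantile normalization, 1 higher with dim genes left out, and 5 higher and 2 lower with the replicate block. The groups share replicate numbers, but deviations of same-numbered arrays correlated at -0.025 over genes and no label states a pairing. With the replicate block, 0 higher and 2 lower of the 42 had an unadjusted limma p under 0.05, against 1 and 3 without it, and 2.48% and 3.14% of all genes did, against 2.35% and 2.94%. Those counts were 2 and 1 with probe sets averaged (2.40% and 2.94% of all genes). Without the variance trend they were 3 and 3 (2.60% and 3.24% of all genes). Leaving out 1 array gave 0 to 5 higher and 1 to 4 lower genes (all genes 1.16% to 4.42% and 1.80% to 4.56%), a median difference from -0.18 to 0.24, 11 to 23 genes without overlap above and 10 to 18 below (all genes 27.0% to 40.9% and 27.0% to 39.7%), the last 2 counts being larger because fewer arrays must separate. Alternatives that keep the 4 arrays turned Ifnar2 (-0.45 averaged, -0.49 without cross-hybridising and shared probe sets), Ifi35 (-0.14 and -0.18 likewise), Ddx58 (-0.14) and Adar (-0.11) when averaged, Gbp2 (0.14 without such probe sets) and Oasl1 (0.0023 with the offset). Leaving out 1 array turned 24 genes, with the ranges Ifnar2 -0.10 to 0.16, Ifngr1 -0.44 to 1.58, Herc6 -0.83 to 0.49, Ifih1 -2.08 to 0.098, Ddx58 -0.18 to 0.95, Dhx58 -1.30 to 0.53, Ifit1 -0.67 to 0.090, Ifit2 -0.68 to 0.21, Ifit3 -0.37 to 0.81, Oas3 -0.18 to 0.36, Oasl1 -0.47 to 0.44, Mx2 -0.39 to 1.55, Samd9l -0.35 to 0.27, Ifi35 -0.052 to 0.087, Ifi30 -0.34 to 0.23, Xaf1 -0.65 to 0.19, Ifitm3 -0.22 to 0.10, Gbp2 -0.64 to 0.31, Gbp3 -0.50 to 0.83, Igtp -0.067 to 0.32, Iigp1 -0.18 to 0.59, Parp9 -0.77 to 0.61, Parp14 -0.49 to 0.77 and Dtx3l -0.16 to 0.12. The other causes were not tested. The 17 genes whose direction held under every alternative include Rsad2, Eif2ak2, Isg20, Irgm1, Usp18, Ifngr2 and Ifnar1, with leave-out ranges of -1.96 to -1.14, -2.66 to -1.16, -1.08 to -0.82, 0.67 to 1.0, 0.64 to 1.19, 0.66 to 0.78 and 0.30 to 0.37. The other 10 had ranges of -0.57 to -0.36 for Stat2, 0.043 to 0.44 for Trim25, -0.59 to -0.20 for Oas1a, -0.47 to -0.072 for Oas2, -1.84 to -0.043 for Oasl2, 0.31 to 0.93 for Mx1, 0.37 to 1.66 for Cmpk2, 0.092 to 0.46 for Rtp4, -0.90 to -0.26 for Ifitm1 and -0.73 to -0.10 for Ifitm2, and Adar, turned when averaged, had 0.087 to 0.55. By construction, a gene whose arrays do not overlap between the groups keeps its sign when 1 array is left out. Of the 17, only Trim25, Oas2 and Rtp4 overlapped, so for the others these ranges restate the lack of overlap. Leaving out the variance trend or the dim genes, or adding the replicate block, does not change a gene's difference either.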
